A study of Homo sapiens with 9 samples.

Results

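The transcripts of 10 genes that the ERK pathway switches on were followed in HNT34 cells after knockdown of EVI1, the transcription factor encoded at the MECOM locus. They were chosen by name, with no threshold on their values, although the list was drawn up with earlier results of these data known: the phosphatases DUSP4, DUSP5 and DUSP6, the Sprouty genes SPRY1, SPRY2 and SPRY4, the Spred genes SPRED1 and SPRED2, the transcription factor ETV5 and the immediate early gene EGR1. All 10 were among the 16612 genes of the count table and among the 16312 that passed the filter on low counts. HNT34 is an established human cell line derived from an acute myeloid leukemia (AML) with high EVI1 expression. The groups were a control that received a non-targeting shRNA (NT) and cells with either of the shRNAs against EVI1, sh#16 and sh#87, with 3 libraries each, and all were collected 3 days after selection. The comparisons ask how expression changes when EVI1 is lowered, and whether 2 shRNAs against the same gene act alike. All groups come from 1 line and carry an shRNA, and 1 label field of the libraries titled 87 reads 18. Nothing in the labels says that the libraries of a group came from separate cultures, so p-values measure the spread between these libraries, which may be technical.

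The ERK pathway carries signals from growth factor and cytokine receptors through RAS, RAF and MEK to the ERK kinases. Active ERK induces immediate early genes such as EGR1 within minutes, and it also induces its own brakes. DUSP4, DUSP5 and DUSP6 are phosphatases that remove the activating phosphates from ERK, the Sprouty and Spred proteins act on RAS and RAF upstream, and ETV5 is an ETS family transcription factor whose transcript is widely used as a readout of ERK output. In myeloid leukemia this pathway is often driven by mutated receptors or RAS.

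Promoter sequence is shown for EGR1 and SPRY2, whose windows held the most matches to the motifs searched, and for DUSP6, the most strongly lowered of the 10 genes with both shRNAs as 1 group. For 7 of the 10 genes, 11 windows of 250 bases upstream of a RefSeq start (GRCh38.p14) were used. No window was used for DUSP4, DUSP5 or ETV5. The windows were searched on both strands for the CArG box (bound by SRF), the ETS core CCGGAA, the AP-1 site TGANTCA, the CRE TGACGTCA and its shorter form TGACGT, the EGR site GCGNGGGCG, the E-box CACGTG and the GATA-like motif GACAAGATA of the first zinc finger domain of EVI1. Over 34786 distinct windows of this length, a CArG box was found in 1.17%, the ETS core in 14.5%, the AP-1 site in 6.59%, the CRE in 1.64%, its shorter form in 7.09%, the EGR site in 8.40%, the E-box in 6.31% and the EVI1 motif in 0.0862%. A match is a description of letters and not evidence of binding. Besides the genes shown, SPRY1 also held an ETS core and an EGR site, and SPRY4 an EGR site. EGR1 held 2 CArG boxes, at -105 to -96 and at -83 to -74, with a short CRE on either side at -136 to -131 and at -67 to -62 and an EGR site at -198 to -190. SPRY2 held an ETS core at -142 to -137 and EGR sites at -134 to -126 and at -41 to -33, whereas the DUSP6 window held none of these letters. The 3 windows lie at chr5:138465229-138465478 on the plus strand (EGR1), chr13:80341127-80341376 on the minus strand (SPRY2) and chr12:89352502-89352751 on the minus strand (DUSP6), and capitals mark the motifs just listed.
EGR1: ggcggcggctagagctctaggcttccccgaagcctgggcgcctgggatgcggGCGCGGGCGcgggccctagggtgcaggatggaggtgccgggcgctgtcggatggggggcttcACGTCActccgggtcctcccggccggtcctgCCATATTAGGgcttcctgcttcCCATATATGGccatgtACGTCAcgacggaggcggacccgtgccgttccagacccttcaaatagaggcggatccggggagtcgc
SPRY2: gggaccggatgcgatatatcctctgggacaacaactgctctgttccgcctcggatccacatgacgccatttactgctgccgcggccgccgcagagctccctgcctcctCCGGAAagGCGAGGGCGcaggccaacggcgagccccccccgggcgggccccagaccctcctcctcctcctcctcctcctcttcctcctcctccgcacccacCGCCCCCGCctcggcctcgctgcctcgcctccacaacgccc
DUSP6: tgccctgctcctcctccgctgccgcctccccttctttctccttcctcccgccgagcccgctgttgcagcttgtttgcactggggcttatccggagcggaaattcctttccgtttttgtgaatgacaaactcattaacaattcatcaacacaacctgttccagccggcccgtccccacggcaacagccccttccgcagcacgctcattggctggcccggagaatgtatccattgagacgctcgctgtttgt

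The libraries held between 17096170 and 43502389 counts. Levels are given as CPM (a gene's counts scaled to a common library size) after TMM normalization, and a gene was called higher or lower at an adjusted p of at most 0.01 by edgeR's quasi-likelihood test with Benjamini-Hochberg adjustment over all genes tested. MECOM stood at 570, 503 and 440 CPM in the NT libraries, at 146, 143 and 146 CPM with sh#16 and at 109, 107 and 106 CPM with sh#87. It was lower with both shRNAs (log2 fold change -2.00, SE 0.14, adjusted p = 9.18e-07), and lower with sh#87 than with sh#16 (log2 difference -0.43, SE 0.09, adjusted p = 0.00661). The NT libraries stood apart from each other in the share of counts from mitochondrially encoded genes, with 15.9%, 11.5% and 4.69%, against 2.69% to 2.88% with sh#16 and 4.62% to 5.97% with sh#87. Markers of the line also differed: 7 myeloid blast markers summed to 2060 to 2148 CPM in NT, 707 to 712 CPM with sh#16 and 401 to 407 CPM with sh#87. PTPRC and CD34 had the highest NT means, 853 and 729 CPM, and weigh most in that sum. With both shRNAs 4 of the 7 were lower (PTPRC, CD34, KIT and SPI1). CD33, ANPEP and CEBPA did not pass, and their log2 fold changes were -0.22, -0.35 and 0.71. The 4 lymphoid markers summed to 25.1 to 50.4 CPM in NT and to 5.14 to 11.4 CPM in the knockdown libraries. The 4 genes listed as epithelial and stromal markers summed to 340 to 360 CPM and to 132 to 179 CPM. Among these, PECAM1 had the highest NT mean, 216 CPM, and averaged 43.3 CPM over the knockdown libraries. COL1A1 moved the other way, from at most 0.172 CPM in NT to at least 26.0 CPM with either shRNA, and no erythroid marker was analysed here. In bulk RNA, fewer cells of a type and less RNA per cell cannot be told apart.

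The 10 genes did not move as a block. With both shRNAs as 1 group 3 were higher (DUSP5, SPRY1 and SPRY2), 2 were lower (DUSP6 and SPRED1) and 5 did not pass the test, while 30.1% of all genes tested were higher and 29.7% were lower. Their median log2 fold change was -0.08, against 0.05 over all genes tested. DUSP5 alone also passed an absolute log2 fold change of 2, as did 15.4% of all genes. With sh#16, 3 were higher and 4 lower, beside 29.8% and 30.2% of all genes, and 1 passed the fold threshold, beside 12.8%. With sh#87, 2 were higher and 4 lower, beside 34.3% and 33.6%, and 1 passed the fold threshold, beside 18.9%. The medians were -0.10 with sh#16 and -0.14 with sh#87, against 0.04 over all genes in each comparison. These shares of called members were near those of all genes, so that the counts say nothing particular to the list. At an adjusted p of at most 0.05, 6 of the 10 differed from NT with both shRNAs, 9 with sh#16 and 9 with sh#87, beside 72.1%, 72.1% and 77.7% of all genes. All comparisons with NT share the same 3 NT libraries. NT replicates 1 and 2 had mitochondrial shares above those of the sh#87 libraries. Without them, the genes called with both shRNAs together kept their direction. Their log2 fold changes were 2.91 (DUSP5), -0.80 (DUSP6), 0.52 (SPRY1), 0.42 (SPRY2) and -0.35 (SPRED1), smaller in size for all but SPRY2. DUSP6, SPRY1, SPRY2 and SPRED1 then no longer passed the test. That fit, chosen after the data were seen, leaves 1 NT library, assumed to vary like the other groups. The share of all genes called in it was not taken, so the lost calls say nothing particular to the list.

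**Figure D1:**
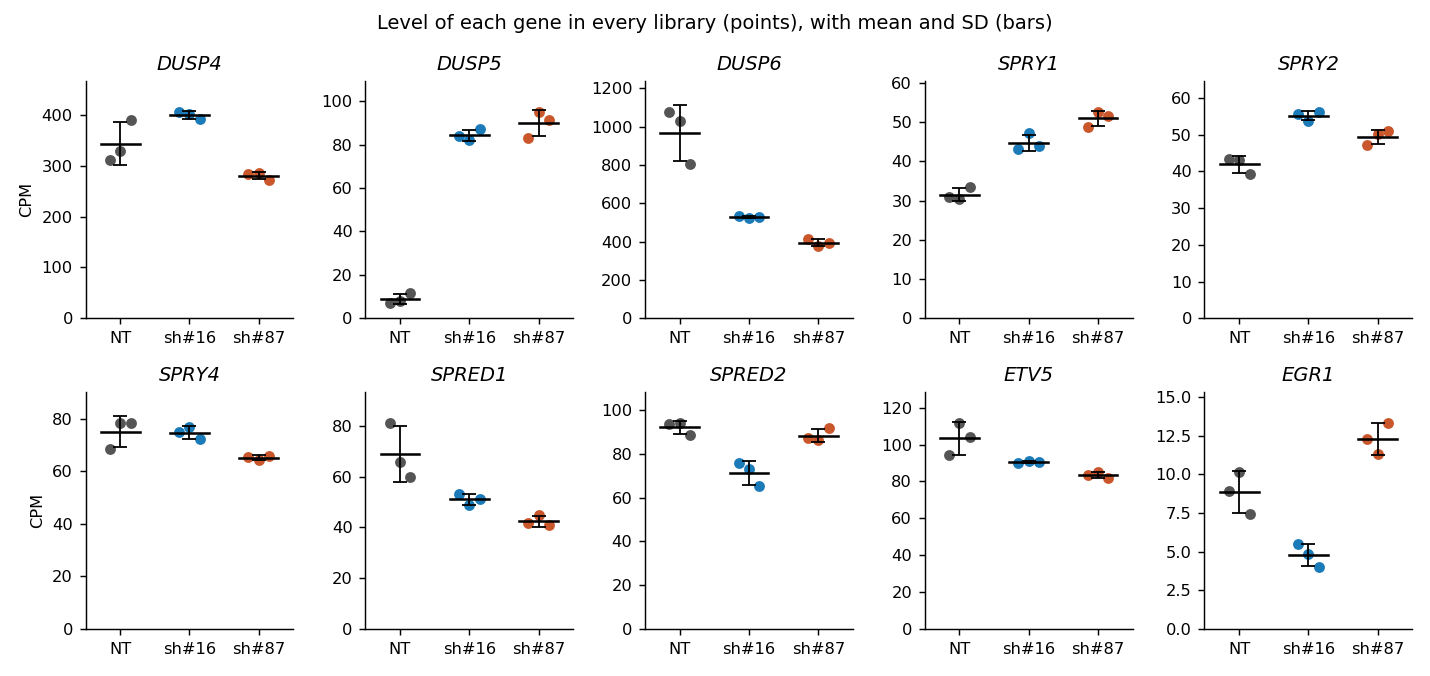
CPM of each of the 10 genes (y axis, linear from 0, a separate scale for each gene) in the 3 libraries of NT, sh#16 and sh#87 (points), with the group mean and SD (bars). DUSP5 lies at 6.90 to 11.6 CPM in NT and at 82.1 to 95.1 CPM in the 6 knockdown libraries, DUSP6 lies lower in all knockdown libraries, and DUSP4 and EGR1 lie on opposite sides of NT with the 2 shRNAs.

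The largest change of the list was in DUSP5, a phosphatase that resides in the nucleus and both dephosphorylates and anchors ERK there. Its gene lies at chr10:110497907-110511533 (GRCh38.p14). Its levels were 6.90, 8.04 and 11.6 CPM in NT, 83.9, 82.1 and 87.1 CPM with sh#16, and 83.2, 95.1 and 91.6 CPM with sh#87. Every knockdown library lay above every NT library, and the shRNAs overlapped each other. DUSP5 was 9.77-fold higher with both shRNAs (95% interval 7.56 to 12.6, log2 fold change 3.29, SE 0.17, adjusted p = 1.43e-07). The log2 fold change was 3.24 (SE 0.17) with sh#16 and 3.33 (SE 0.17) with sh#87, and the difference between them was 0.09 with a 95% interval of -0.25 to 0.44. Within NT, the highest DUSP5 level was in the library with the lowest mitochondrial share. Against that library alone the log2 fold change of DUSP5 with both shRNAs was 2.91.

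DUSP6 encodes the cytoplasmic phosphatase that is the standard negative feedback gene of ERK, and it moved opposite to DUSP5. The gene spans chr12:89347235-89352501 on the minus strand, next to the promoter window printed above. It was the most abundant of the 10 genes in NT at 1077, 1028 and 803 CPM, and measured 533, 523 and 527 CPM with sh#16 and 413, 376 and 391 CPM with sh#87. The 3 groups did not overlap. DUSP6 fell to 47.3% of NT with both shRNAs (log2 fold change -1.08, SE 0.15, adjusted p = 1.01e-04). The log2 fold change was -0.88 (SE 0.11, adjusted p = 7.36e-05) with sh#16 and -1.31 (SE 0.11, adjusted p = 4.40e-06) with sh#87. The difference between the shRNAs, -0.42 on the log2 scale (95% interval -0.66 to -0.18), missed the threshold (adjusted p = 0.0155). It also missed it in 15 of the 21 alternatives and passed it in 6. It passed without NT replicate 1 (0.00548) or NT replicate 3 (3.47e-04), by DESeq2 (0.00484) and in a fit of the sh#16 and sh#87 libraries without NT (2.31e-05), among others. The NT library with the lowest mitochondrial share also had the lowest DUSP6 level. Against that library alone the log2 fold change was -0.61 with sh#16, -1.02 with sh#87 and -0.80 with both shRNAs together. The last of these no longer passed the test. The part of the mitochondrial share in this result was not tested.

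DUSP4, a nuclear phosphatase of ERK and related kinases, differed between the shRNAs. It measured 311, 330 and 391 CPM in NT, 407, 403 and 393 CPM with sh#16 and 284, 285 and 273 CPM with sh#87. The sh#16 libraries lay above the NT libraries and the sh#87 libraries below them. The log2 fold change was 0.21 (SE 0.08, adjusted p = 0.0465) with sh#16, which missed the threshold but passed it without NT replicate 3 (adjusted p = 6.62e-04), and -0.30 (SE 0.08, adjusted p = 0.00976) with sh#87, which passed it. With sh#87 DUSP4 was 1.43-fold lower than with sh#16 (log2 difference -0.51, SE 0.08, adjusted p = 0.00241), and both as 1 group gave a log2 fold change of -0.02 (adjusted p = 0.917). Both DUSP4 calls were close to the threshold. The one between the shRNAs was lost when any single knockdown library was left out (adjusted p up to 0.0146), at a log2 difference that stayed between -0.53 and -0.49, and the call of sh#87 against NT was lost when sh#16 replicate 1, 2 or 3, sh#87 replicate 1, 2 or 3 or NT replicate 2 was left out (adjusted p up to 0.0399). With the replicate block these calls were also lost (adjusted p = 0.0102 between the shRNAs and 0.0246 with sh#87 against NT). Upper-quartile normalization also ended the DUSP4 call with sh#87 (-0.18, adjusted p = 0.0716), and with it the value with sh#16 passed (0.32, adjusted p = 0.00646).

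Levels can be set side by side between genes only per length, and CPM were therefore divided by the length of the canonical transcript in kilobases. On this scale DUSP6 led the list in every group, with 267 ± 40.3 CPM per kb (SD, n = 3) in NT, 145 ± 1.36 with sh#16 and 108 ± 5.10 with sh#87, and DUSP4 came next in each, at 62.0 ± 7.49, 72.2 ± 1.28 and 50.6 ± 1.20 CPM per kb. DUSP5 had rank 9 of 10 in NT, at 3.58 ± 0.99 CPM per kb and overlapping only EGR1, and rank 3 with both shRNAs, at 34.1 ± 1.01 and 36.3 ± 2.46 CPM per kb. The summed level of the 3 phosphatases was 333 ± 31.9 CPM per kb in NT, 252 ± 2.12 with sh#16 and 195 ± 2.78 with sh#87, so that their total was lower while its makeup shifted. DUSP5 made up 0.783% to 1.58% of that sum in the NT libraries, 13.3% to 13.99% with sh#16 and 16.9% to 19.9% with sh#87. DUSP6 made up 74.7% to 83.4%, 57.7% to 57.8% and 53.6% to 57.3%. The ratio of DUSP6 to DUSP5 within a library lay between 47.2 and 107 in NT, between 4.13 and 4.35 with sh#16 and between 2.697 and 3.38 with sh#87. These ratios are descriptions and carry no test, since they restate the levels of the same genes.

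**Figure D2:**
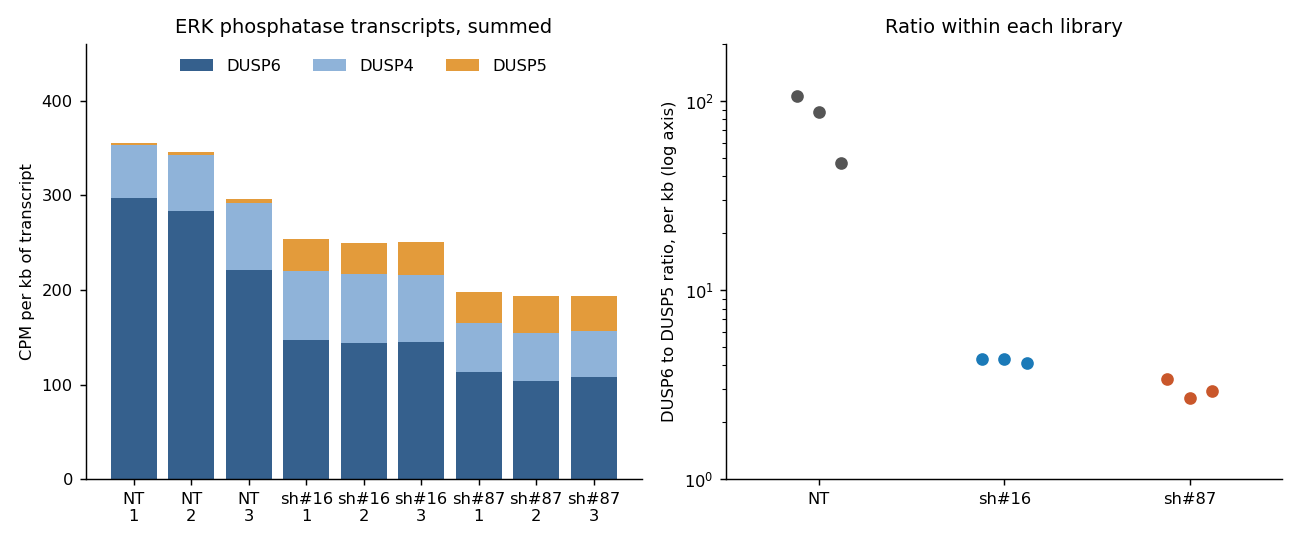
Left, the level of DUSP6, DUSP4 and DUSP5 in each library in CPM per kb of transcript (stacked bars from 0). Right, the ratio of DUSP6 to DUSP5 per kb within each library (points, log axis), which lies at 47.2 to 107 in NT and at 2.697 to 4.35 in the knockdown libraries.

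Among the Sprouty genes, whose proteins hold back receptor signals at the level of RAS and RAF, SPRY1 rose with each shRNA. SPRY1 (chr4:123396795-123403760) was at 30.8, 30.3 and 33.5 CPM in NT, at 43.1, 47.1 and 43.8 CPM with sh#16 and at 48.7, 52.6 and 51.5 CPM with sh#87. The 3 groups did not overlap. SPRY1 was 1.51-fold higher with both shRNAs (95% interval 1.30 to 1.75, log2 fold change 0.60, SE 0.10, adjusted p = 2.74e-04), with log2 fold changes of 0.50 (SE 0.07) with sh#16 and 0.69 (SE 0.07) with sh#87.

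SPRY2, the best known member of the family and often lost in solid tumors, was at 43.3, 43.2 and 39.2 CPM in NT, at 55.8, 53.7 and 56.2 CPM with sh#16 and at 47.1, 50.1 and 50.9 CPM with sh#87. It lies at chr13:80335976-80341126 on the minus strand, downstream of the window with the ETS core and 2 EGR sites. The knockdown libraries all lay above the NT libraries, with sh#16 above sh#87. SPRY2 was 1.24-fold higher with both shRNAs (log2 fold change 0.32, SE 0.09, adjusted p = 0.00800) and rose with sh#16 (0.39, SE 0.07, adjusted p = 6.77e-04), and with sh#87 it missed the threshold (0.23, SE 0.07, adjusted p = 0.0112; 0.00801 without NT replicate 1 and 0.00147 with upper-quartile normalization). The call with both shRNAs did not hold without any of sh#16 replicates 1, 2 and 3, sh#87 replicates 2 and 3 or NT replicates 1, 2 and 3 (adjusted p up to 0.0324), nor with the replicate block (adjusted p = 0.0252). The difference between the shRNAs was -0.16 (95% interval -0.31 to -0.01, adjusted p = 0.101).

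SPRY4 (chr5:142310430-142325021) was at 68.3, 78.4 and 78.3 CPM in NT, at 75.0, 76.9 and 72.0 CPM with sh#16 and at 65.4, 64.0 and 65.8 CPM with sh#87. NT and sh#16 overlapped, and sh#87 lay below both. No comparison of SPRY4 passed the test, with log2 fold changes of -0.01 (95% interval -0.17 to 0.15) with sh#16 and -0.21 (95% interval -0.37 to -0.05, adjusted p = 0.0215) with sh#87. Without NT replicate 1 the latter passed (adjusted p = 0.00123). An antisense gene, SPRY4-AS1, overlaps SPRY4 by 1247 bases on the opposite strand. It was counted at 24 to 75 reads per library, against 1294 to 3557 for SPRY4, and its share in the SPRY4 counts cannot be told apart, because the strand setting of the counting is not given in the sources used here. Summed per length, the 3 Sprouty genes gave 45.7 ± 0.93 CPM per kb (SD, n = 3) in NT, 56.6 ± 0.64 with sh#16 and 54.4 ± 1.55 with sh#87. SPRY1 took 25.0% to 27.99% of that sum in NT and 35.5% to 36.6% with sh#87, and SPRY4 took 31.1% to 34.7% and 23.7% to 25.3%.

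Spred proteins bind neurofibromin and bring this RAS inactivator to the membrane. SPRED1, which is mutated in Legius syndrome, spans chr15:38252836-38357249. It measured 81.2, 65.8 and 59.7 CPM in NT, 52.9, 48.9 and 51.1 CPM with sh#16 and 41.5, 44.8 and 40.9 CPM with sh#87. Every knockdown library lay below every NT library. SPRED1 fell to 67.5% of NT with both shRNAs (log2 fold change -0.57, SE 0.12, adjusted p = 0.00173). Its log2 fold change was -0.44 (SE 0.11, adjusted p = 0.00534) with sh#16 and -0.70 (SE 0.11, adjusted p = 2.88e-04) with sh#87. As for DUSP6, the NT library with the lowest mitochondrial share had the lowest level. Against it alone the log2 fold change of SPRED1 with both shRNAs was -0.35 and did not pass the test. The call with sh#16 was lost without any of sh#16 replicates 1, 2 and 3, sh#87 replicates 1 and 3 or NT replicate 2 (adjusted p up to 0.0252), and with upper-quartile normalization (-0.34, adjusted p = 0.0253).

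SPRED2 (chr2:65307175-65432599), by contrast, passed the test with sh#16 and not with sh#87. It stood at 93.5, 94.3 and 88.9 CPM in NT, at 75.7, 73.3 and 65.2 CPM with sh#16 and at 87.2, 86.4 and 91.7 CPM with sh#87. The sh#16 libraries lay below all others, and sh#87 overlapped NT. The log2 fold change was -0.37 (SE 0.07, adjusted p = 0.00115) with sh#16 and -0.07 (95% interval -0.23 to 0.09, adjusted p = 0.416) with sh#87. The difference between the shRNAs, 0.31 (95% interval 0.15 to 0.47), just missed the threshold (adjusted p = 0.0102), and passed it without NT replicate 1 (0.00471) or NT replicate 3 (0.00277), by DESeq2 (7.28e-04) and with upper-quartile normalization (0.00910). The ratio of SPRED1 to SPRED2 per kb was 0.418 to 0.540 in NT, 0.415 to 0.487 with sh#16 and 0.277 to 0.323 with sh#87.

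ETV5 (chr3:186046314-186109089), whose protein acts with its relatives ETV1 and ETV4 downstream of ERK, lay below NT in all knockdown libraries. Its levels were 94.3, 112 and 104 CPM in NT, 89.9, 91.0 and 90.7 CPM with sh#16 and 83.4, 84.9 and 81.9 CPM with sh#87. The groups did not overlap, although the changes were small. ETV5 passed the test with sh#87 (log2 fold change -0.31, SE 0.07, adjusted p = 0.00234) and not with sh#16 (-0.20, SE 0.07, adjusted p = 0.0272) or with both together (-0.25, SE 0.08, adjusted p = 0.0145). The difference between the shRNAs was -0.12 (95% interval -0.27 to 0.04). The ETV5 call was lost without sh#87 replicate 3 (adjusted p = 0.0128) and with upper-quartile normalization (-0.19, adjusted p = 0.0207). DESeq2 called ETV5 with sh#16 (adjusted p = 0.00337) and with both (8.87e-04) as well, and without NT replicate 1 ETV5 also passed with sh#16 (adjusted p = 0.00152) and with both (0.00445).

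EGR1, a zinc finger transcription factor and classical early target of ERK through SRF and its ETS partners, was at a low level and went apart with the 2 shRNAs. The gene lies at chr5:138465479-138469303, directly downstream of the window with the 2 CArG boxes. It measured 8.92, 10.2 and 7.43 CPM in NT, 5.46, 4.82 and 4.01 CPM with sh#16 and 12.3, 11.3 and 13.3 CPM with sh#87, from 73 to 295 counts per library. All sh#16 libraries lay below NT and all sh#87 libraries above it. EGR1 fell to 54.1% of NT with sh#16 (log2 fold change -0.89, SE 0.15, adjusted p = 6.76e-04), and with sh#87 the value of 0.47 (SE 0.15, adjusted p = 0.0157) missed the threshold and passed it with upper-quartile normalization (0.59, adjusted p = 0.00488). Between the shRNAs EGR1 was 2.57-fold higher with sh#87 (95% interval 2.02 to 3.26, log2 difference 1.36, SE 0.15, adjusted p = 4.06e-04), and this call held in all 21 alternatives (adjusted p up to 0.00385). Both shRNAs as 1 group gave -0.06 (SE 0.39, adjusted p = 0.898), a mean of opposite values.

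**Figure D3:**
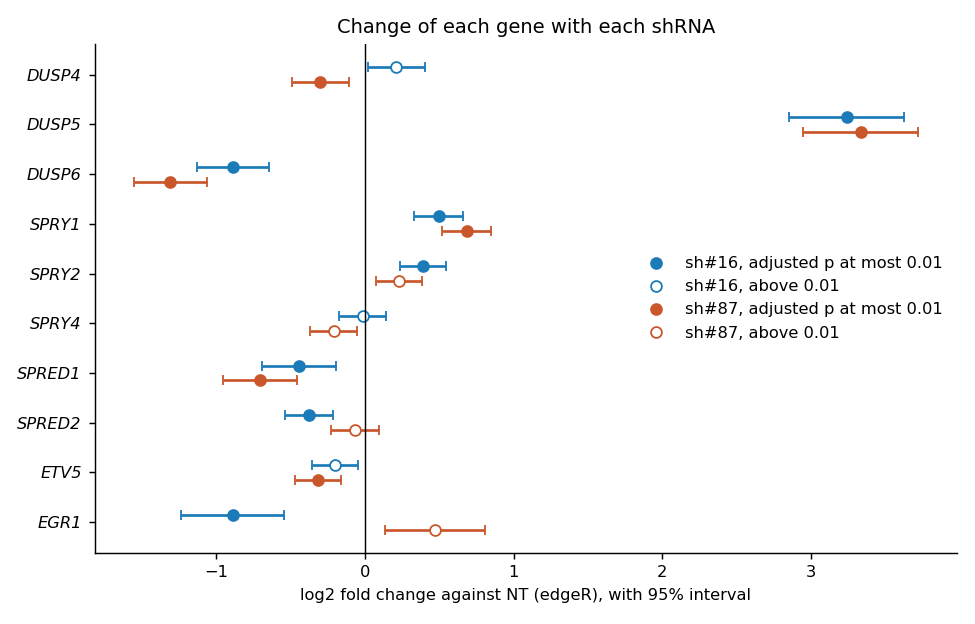
Log2 fold change against NT (x axis) of each gene with sh#16 and with sh#87 (points), with 95% intervals from edgeR (bars). Filled points have an adjusted p of at most 0.01. DUSP5 stands alone at 3.24 and 3.33, DUSP6 and SPRED1 lie below 0 with both shRNAs, and the intervals of EGR1 lie on opposite sides of 0.

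Compared directly, sh#87 and sh#16 differed in 2 of the 10 genes, EGR1 (higher with sh#87) and DUSP4 (lower), while 8.29% of all genes tested were higher with sh#87 and 9.42% lower. None of the 10 passed the fold threshold as well, by edgeR, DESeq2 or limma-voom, while 0.454% of all genes did by edgeR. At an unadjusted p under 0.05, with no fold threshold, 8 of the 10 differed, beside 44.6% of all genes. The number called depended on the fit, as did the share of all genes. It was 4 by DESeq2, the tool the study names (24.6% of all genes), 7 in a fit of the sh#16 and sh#87 libraries without NT (45.7%), 4 with the threshold on the adjusted p raised to 0.05 (33.7%), and 1 with the replicate block (9.74%). It was 1 when any single knockdown library was left out, for which the share of all genes was not taken. The biological coefficient of variation was 3.75% within sh#16 and 6.97% within sh#87, against 24.9% within NT. The median log2 difference of the 10 genes was -0.14, against -0.02 over all genes. MECOM itself was lower with sh#87, as given above.

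The genes around the 10 were taken from lists of the pathway's other parts, and the counts of each list stand beside the same background of 30.1% of all genes higher, 29.7% lower and 15.4% past the fold threshold with both shRNAs. Of the 28 genes of the core cascade, from adaptors through RAS and RAF to ERK and its kinase targets, 7 were higher and 14 lower with both shRNAs, with a median log2 fold change of -0.33. RASGRP3, RASGRP2 and RASGRP4, exchange factors that load RAS with GTP, were lower at log2 fold changes of -1.92, -1.87 and -1.74, and RASGRP3 went from 137 ± 9.58 CPM (SD, n = 3) in NT to 43.1 ± 3.25 with sh#16 and 29.5 ± 1.77 with sh#87. RRAS, a RAS relative, rose by 2.85 from 3.40 ± 0.61 CPM in NT, MAP2K1, which encodes MEK1, rose by 1.63 from 33.04 ± 3.51 to 103 ± 2.63 and 102 ± 2.03 CPM, and HRAS rose by 0.94.

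Of 15 other brakes on RAS and RAF, 5 were higher, 2 lower and 8 did not pass, with a median of 0.09. The GTPase-activating genes RASA4 and RASA1 rose by 2.89 and 0.54 and LZTR1, an adaptor for RAS degradation, by 0.89, whereas RASAL3 and SH2B3, an adaptor that restrains JAK2 signals in blood cells, were lower (-1.49 and -1.27). SH2B3 stood at 366 ± 4.99 CPM in NT and at 155 ± 2.22 and 151 ± 0.51 CPM with sh#16 and sh#87. Of 7 other MAP kinase phosphatases, 2 were higher and 2 lower, with a median of 0.39. DUSP10, which prefers p38 and JNK, rose by 2.01 from 6.33 ± 0.53 CPM, PTPN7, a blood cell phosphatase of ERK, was lower by a log2 fold change of -3.55, from 166 ± 33.5 CPM in NT to 14.9 ± 1.78 and 13.5 ± 0.77 CPM, and DUSP7, a phosphatase of ERK in the cytoplasm, was lower (-0.75).

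Of 24 other immediate early genes tested, 13 were higher and 5 lower with both shRNAs. The median log2 fold change was 1.13, against 0.05 over all genes. The fold threshold was passed by 10 of the 24, beside 15.4% of all genes. Of these 10, FOS, FOSB, KLF2, NR4A1, NR4A3 and CCN1 had at most 20 reads in any NT library. Their fold changes therefore rest on low NT counts. IER3, ZFP36, FOSL1 and ATF3, the rest of the 10, had at least 167 reads in each NT library. FOS was counted at only 6 to 15 reads per NT library (0.367 ± 0.12 CPM) and reached 11.4 ± 0.71 CPM with sh#16 and 24.2 ± 1.67 with sh#87 (log2 fold change 5.54). NR4A1, an orphan nuclear receptor, went from 0.505 ± 0.14 CPM to 6.60 ± 0.72 and 24.2 ± 0.98, and KLF2 from 0.259 ± 0.15 CPM to 9.03 ± 0.26 and 2.75 ± 0.66. FOSL1, FOSL2 and ATF3 fell, with log2 fold changes of -2.96, -1.27 and -2.43. Between the shRNAs 8 of the 24 were higher with sh#87 and 2 lower, beside 8.29% and 9.42% of all genes, a direction that EGR1 shared with FOS (log2 difference 1.09, adjusted p = 3.97e-04) and NR4A1 (1.88, adjusted p = 6.12e-05) and not with KLF2 (-1.71, adjusted p = 0.00109). Unlike these, EGR1 lay below NT with sh#16. Genes of stress and handling moved as well: HSPA1B, HSPA1A and DNAJB1 rose by 3.21, 2.26 and 1.42, DDIT3, HSPA5 and HSPA8 fell (-2.75, -1.46 and -1.40), and of the 11 listed 3 were higher and 5 lower, with summed levels of 2437 to 3999 CPM in NT, 2013 to 2073 with sh#16 and 1768 to 1925 with sh#87. Their part in the early gene values was not tested.

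Among 15 other genes of ERK output, 4 were higher and 6 lower, with a median of -0.23. PHLDA1 rose by 1.30 from 25.7 ± 0.77 to 54.5 ± 0.75 and 72.2 ± 5.76 CPM, and the SRF partner ELK1 by 0.95. KCNN4, ELK3 and ETS2 fell (-1.74, -1.68 and -0.92). ETV4, the relative of ETV5, was at 40.6 ± 7.26 CPM in NT, 36.1 ± 1.99 with sh#16 and 29.4 ± 1.09 with sh#87 (log2 fold change -0.31, adjusted p = 0.0582 with both). ETV4 and VGF were named outside the rule that picked the genes of each list. VGF was at 0 counts in all NT libraries and at 3.34 ± 0.12 and 4.84 ± 0.24 CPM with the shRNAs. CCND1, likewise below 5 CPM, went the other way. It had 36 to 40 reads per NT library, 1 to 2 with sh#16 and 0 to 3 with sh#87. SPRY3, the remaining Sprouty gene, was named after its values were seen: it was at 4.42 ± 0.44 CPM in NT and at 0.281 ± 0.05 and 0.404 ± 0.08 CPM with sh#16 and sh#87. Of 14 growth factor receptors, 3 were higher and 6 lower, with a median of -0.17. EPOR rose by 2.38 from 2.25 ± 0.72 CPM, while CSF1R fell (-2.08) and PDGFRB went from 9.62 ± 3.96 CPM in NT to 0.132 ± 0.05 and 0.178 ± 0.07 CPM.

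**Figure D4:**
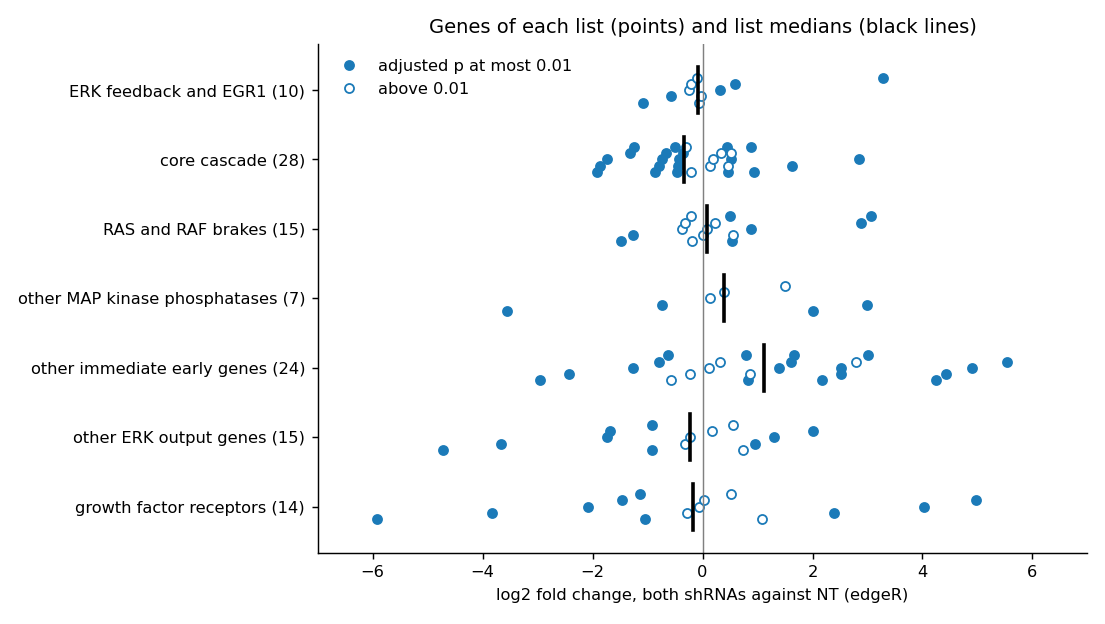
Log2 fold change with both shRNAs against NT (x axis) of every tested gene of each list (points, with the number of genes in brackets) and the list's median (black line). Filled points have an adjusted p of at most 0.01, and VGF, at 0 counts in NT, is not drawn but counts in its median. The other immediate early genes have the highest median, 1.13, and the 10 ERK feedback genes lie between -1.08 and 0.60 apart from DUSP5.

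The genes whose profile over the 9 libraries lay nearest to DUSP5, by the root mean square difference of log2 CPM relative to the NT mean among 11118 genes, were LRP4 (0.162), PLPPR2 (0.164) and KREMEN1 (0.165). Those nearest to DUSP6 were HNRNPC (0.0432), CHCHD3 (0.0543) and BLOC1S5 (0.0560). This is a likeness of levels over 3 groups and says nothing of shared control.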

How the data were processed

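Stranded poly(A) RNA libraries were made with a TruSeq kit. The authors deposited 1 table of estimated counts per gene, all of them whole numbers, with 16612 gene symbols and none blank. The submitters' processing notes name STAR and GRCh38, while the table's header names salmon outputs and is shifted left by 1 column. The strand setting and the choice of genes are not given in the sources used here. With R 4.3.3, genes were filtered (filterByExpr), normalized (TMM) and tested with edgeR 4.0.16 (quasi-likelihood, Benjamini-Hochberg over 16312 genes). Both shRNAs as 1 group were tested in a fit of 2 groups, the other comparisons in a fit of 3. The thresholds, an adjusted p of 0.01 and an absolute log2 fold change of 2, are those of the study's text, while a figure legend for these data gives an adjusted p of 0.05, used here as an alternative. SE was derived from the F statistic, and SD is over 3 libraries. Levels near 3 counts per library are at the floor, which covers counting error only. Transcript lengths came from the GRCh37 annotation, positions and promoters from RefSeq. From each pathway list up to 3 genes higher and 3 lower were named, with the largest change among those called with each shRNA where the higher group's mean reached 5 CPM, as well as the 3 genes nearest to the highest and the lowest of the 10 genes. A gene that this rule names is not reported here. The members and lists were chosen with earlier results of these data known. The alternatives were other normalizations and filters, DESeq2 1.42.0, limma-voom (limma 3.58.1), a replicate block, other fits and thresholds, and each library left out. Methods were tested on simulated data.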

Additional observations from a re-analysis of the deposited data

Results flagged for a closer look

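The effects of the 2 shRNAs differed, by a direct test, in 2 of the 10 genes. EGR1 was higher with sh#87 than with sh#16 by 1.36 on the log2 scale (adjusted p = 4.06e-04, edgeR, every sh#87 library above every sh#16 library), and DUSP4 was lower (log2 difference -0.51, adjusted p = 0.00241, every sh#87 library below). In both genes the libraries of 1 shRNA lay above all NT libraries and those of the other below them. For DUSP4 the lowest sh#16 library, at 393 CPM, was close to the highest NT library, at 391 CPM. DUSP4 was not called with sh#16 against NT (adjusted p = 0.0465, edgeR). The DUSP4 call between the shRNAs was lost when any single knockdown library was left out, while that of EGR1 held in all 21 alternatives. MECOM was lower with sh#87 than with sh#16, and the part of this difference in either gene was not tested.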

How the results depend on the processing

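The 40 single-gene results were each recomputed under 21 alternatives, 840 values in all: 736 kept direction and side of the threshold, 46 lost a call, 41 gained one and 17 changed sign, and the cause was not tested. DUSP5, DUSP6, SPRY1, SPRY2, SPRED1 and ETV5 kept every sign, as did EGR1 with each shRNA. Upper-quartile normalization moved the median of all genes by 0.11 (both shRNAs), 0.10 (sh#16) and 0.12 (sh#87). It gave 0.0910 for DUSP4, 0.00519 for SPRY4 and 0.0557 for EGR1 with both shRNAs, 0.0932 for SPRY4 with sh#16 and 0.0535 for SPRED2 with sh#87, all of the opposite sign. With both shRNAs DUSP4 also turned without sh#87 replicate 1, 2 or 3 or NT replicate 3 (-0.0997 to 0.0598 over all libraries left out), and EGR1 without sh#16 replicate 1, 2 or 3 or NT replicate 2 (-0.224 to 0.0862). SPRY4 with sh#16 turned without sh#16 replicate 3 and without NT replicate 2 (-0.0903 to 0.0211). Without NT replicates 1 and 2 together, EGR1 with both shRNAs was 0.20 and SPRED2 with sh#87 0.00213, 1 member was called with both shRNAs and 7 between the shRNAs, and 12 genes of the core cascade and 11 other immediate early genes were called. The number of members called between the shRNAs was 4 by DESeq2 (24.6% of all genes), 7 with only the groups compared in the fit (45.7%) and 4 at an adjusted p of 0.05 (33.7%). It was 6 by limma-voom with a weight per group and from 1 to 4 with a library left out. The share of all genes was not taken for these last fits, nor for the fit without NT replicates 1 and 2 together. Counts from any of these fits therefore say nothing particular to a list. With a fit to the mean of both shRNAs, 11 RAS and RAF brakes passed, against 7 in the main fit. With the fold threshold lowered to 1 on the log2 scale, the members past both thresholds were 2 with both shRNAs, 2 with sh#87 and 1 between the shRNAs. The share of all genes was not taken for that fit or for the lowered threshold. Replicate numbers did not pair the libraries (correlation of deviations from -0.14 to 0.08 over 9 pairs). With the replicate block 1 member was called between the shRNAs, beside 9.74% of all genes, and the block moved no other count of members by over 1.5 times. The NT libraries varied most, which limits what small changes against NT can show.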
